A study of Ovis aries with 12 samples.

Results

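The insulin-like growth factor (IGF) system was followed in the ovine corpus luteum through 10 genes, chosen by name with earlier results of these data known. They were the ligands IGF1 and IGF2, the receptors IGF1R, IGF2R and INSR, and the binding proteins IGFBP2, IGFBP3, IGFBP4, IGFBP5 and IGFBP6. All 23 probe sets that the array's annotation gives to one of these genes alone were used, out of 24016 probe sets for 9155 gene symbols. A probe set is the group of short probes that together give one value for a transcript. Ligands had 8 of the 23 probe sets, receptors 9 and binding proteins 6. None of the sources used here held a sequence for these probe sets, so they are named by their identifiers on the array.

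The corpus luteum is the gland that forms from the ovulated follicle and makes progesterone, and in a ewe without a conceptus it regresses at the end of the cycle. There were 12 glands from 12 ewes, 3 in each of 4 groups, and per the title the study asked which genes linked to pregnancy help the gland to resist luteolysis, its regression. Pregnant ewes, mated with a fertile ram, were sampled on day 12 and on day 14. Non-pregnant ewes, never mated and timed by heat checks with a vasectomized ram, were sampled on the same days. Breed and age of the ewes are not given in the sources used here, and no agent or transgene was named for any group.

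IGF1 and IGF2 are small secreted proteins that act mainly through the receptor kinase IGF1R, with the insulin receptor INSR as a close relative that also binds insulin and forms hybrids with IGF1R. IGF2R, the mannose 6-phosphate receptor, takes IGF2 into lysosomes. The binding proteins hold IGFs in tissue fluid and blood and so set how much ligand reaches the receptors. In the ovary, IGFs are known to act together with gonadotropins on steroid synthesis and cell survival.

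The glands carried luteal transcripts: STAR, CYP11A1, HSD3B1 and OXT lay above the 99th percentile of all probe sets (99.79, 99.11, 99.34 and 99.86). The rest of the 10 luteal steroid cell markers lay lower, down to 86.6 for LHCGR. Some fibroblast markers, among them COL3A1 (99.96), also lay above the 99th percentile. Arrays of the 3 day 14 non-pregnant ewes were distinct from the remaining 9: principal component 1, which held 29.6% of the variance, placed them at 18.1 to 40.4 and the others at -13.0 to -7.0. The mean level of 10 luteal steroid cell markers was 10.09 to 10.55 (log2) in that group and 10.68 to 10.86 in the other 9 arrays. The log2 gap between the control probe sets for both ends of a transcript, 3′ minus 5′, was 1.29 to 1.43 in that group, 1.42 to 1.47 in day 12 non-pregnant, 1.57 to 1.60 in day 12 pregnant and 1.44 to 1.60 in day 14 pregnant ewes. The arrays came in batches A (4 arrays) and B (8 arrays), as their descriptions name a pair of array types. Batch A held 2 day 14 non-pregnant, 1 day 14 pregnant and 1 day 12 pregnant array, and batch B the rest. Each difference within a batch on day 14 thus has 1 array on one side and no error of its own. Those within batch B between the days in non-pregnant ewes, and for the interaction, use 1 day 14 non-pregnant array. Day 14 pregnant replicate 3 was the batch A array of its group, so fits without it leave that group wholly in batch B. Differences that involve the day 14 non-pregnant group cannot be fully separated from these features of its arrays. The part of these features in them was not tested. In whole glands, fewer cells of a type and less RNA per cell cannot be told apart.

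On day 14, 4 of the 23 probe sets were lower in pregnant than in non-pregnant ewes, and 0 were higher. They were 2 of the 5 for INSR and both for IGFBP3. The test was limma with Benjamini-Hochberg adjustment over all 24016 probe sets and a threshold of 0.05, which called 1.45% of all probe sets, 0.912% as lower and 0.537% as higher. At an unadjusted p under 0.05 there were 7 of the 23, against 15.4% of all probe sets. Between day 12 and day 14 of the cycle, without pregnancy, 2 of the 23 rose, 1 of INSR and 1 of IGFBP3, and 0 fell. In that comparison 0.391% of all probe sets were called, 0.291% as higher and 0.0999% as lower, and 8 of the 23 had an unadjusted p under 0.05, against 11.7%. In limma, 0 of the 23 passed between pregnant and non-pregnant ewes on day 12, with 2 at an unadjusted p under 0.05, and 0 passed between the days in pregnant ewes, with 3 at an unadjusted p under 0.05. In these comparisons 0 of all probe sets passed, and 7.69% and 4.43% lay under an unadjusted p of 0.05. The difference between the days in the pregnancy difference, the interaction, passed for 1 of the 23, an INSR probe set, with a lower difference on day 14. Of all probe sets 0.0874% were called there, 0.0625% as lower and 0.025% as higher, and 7 of the 23 had an unadjusted p under 0.05, against 9.42%. The ewes are separate animals, so the spread behind each test is that between 3 ewes per group with 1 array each. The day 14 comparison, the non-pregnant day comparison and the interaction share the 3 day 14 non-pregnant arrays and are not independent of each other.

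**Figure D1:**
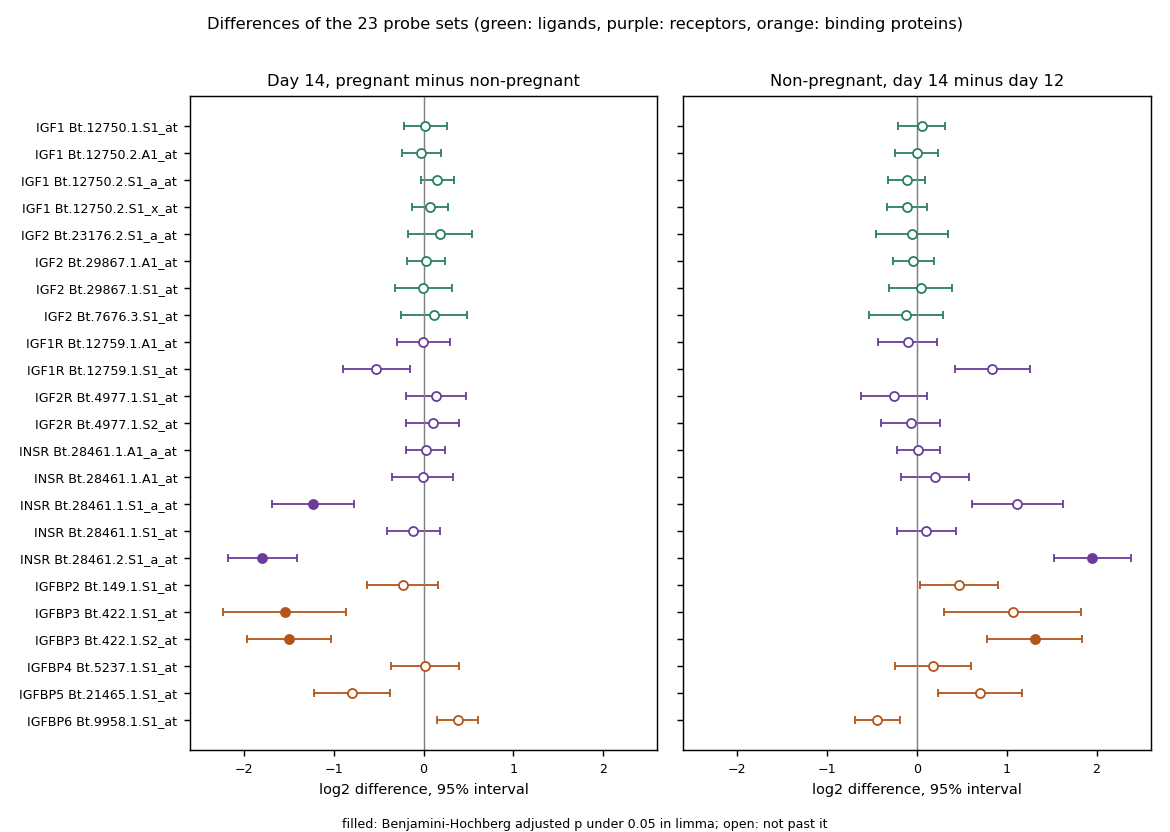
Log2 differences (x axis) of the 23 probe sets (y axis) with 95% intervals from limma, for pregnant minus non-pregnant ewes on day 14 and for day 14 minus day 12 in non-pregnant ewes. Filled points passed an adjusted p of 0.05. All 8 ligand probe sets lay within 0.2 of 0 in both comparisons, and the filled points belong to INSR and IGFBP3.

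The ligands did not pass any test. IGF1, the ligand that mediates much of growth hormone's action, had 4 probe sets. The brightest, Bt.12750.2.S1_a_at, lay between 7.0 and 7.38 (log2) over all 12 arrays, with group means of 7.14 ± 0.0398 in day 12 non-pregnant, 7.22 ± 0.135 in day 12 pregnant, 7.18 ± 0.155 in day 14 non-pregnant and 7.25 ± 0.130 in day 14 pregnant ewes (SD, n = 3). All 4 groups overlapped. Over its 4 probe sets and 5 comparisons the differences lay between -0.11 and 0.15, with a lowest adjusted p of 0.427 in limma. One of the 4, Bt.12750.1.S1_at, was dim, which here means a mean under 3.59, the 25th percentile of all probe sets. RMA values come without a detection call, and whether dim probe sets measured any transcript is unknown.

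IGF2, the ligand bound by both IGF1R and IGF2R, also had 4 probe sets. The brightest, Bt.23176.2.S1_a_at, lay between 7.21 and 7.93, with group means of 7.62 ± 0.158, 7.56 ± 0.307, 7.58 ± 0.0918 and 7.75 ± 0.197 (log2, SD, n = 3) in day 12 non-pregnant, day 12 pregnant, day 14 non-pregnant and day 14 pregnant ewes. No pair of groups was separated at any of its 4 probe sets. The differences lay between -0.14 and 0.25, and the lowest adjusted p was 0.643 in limma. The next gene to IGF2 in the sheep annotation, INS, was at 0.12 ± 0.10 on day 14 (adjusted p = 0.615).

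**Figure D2:**
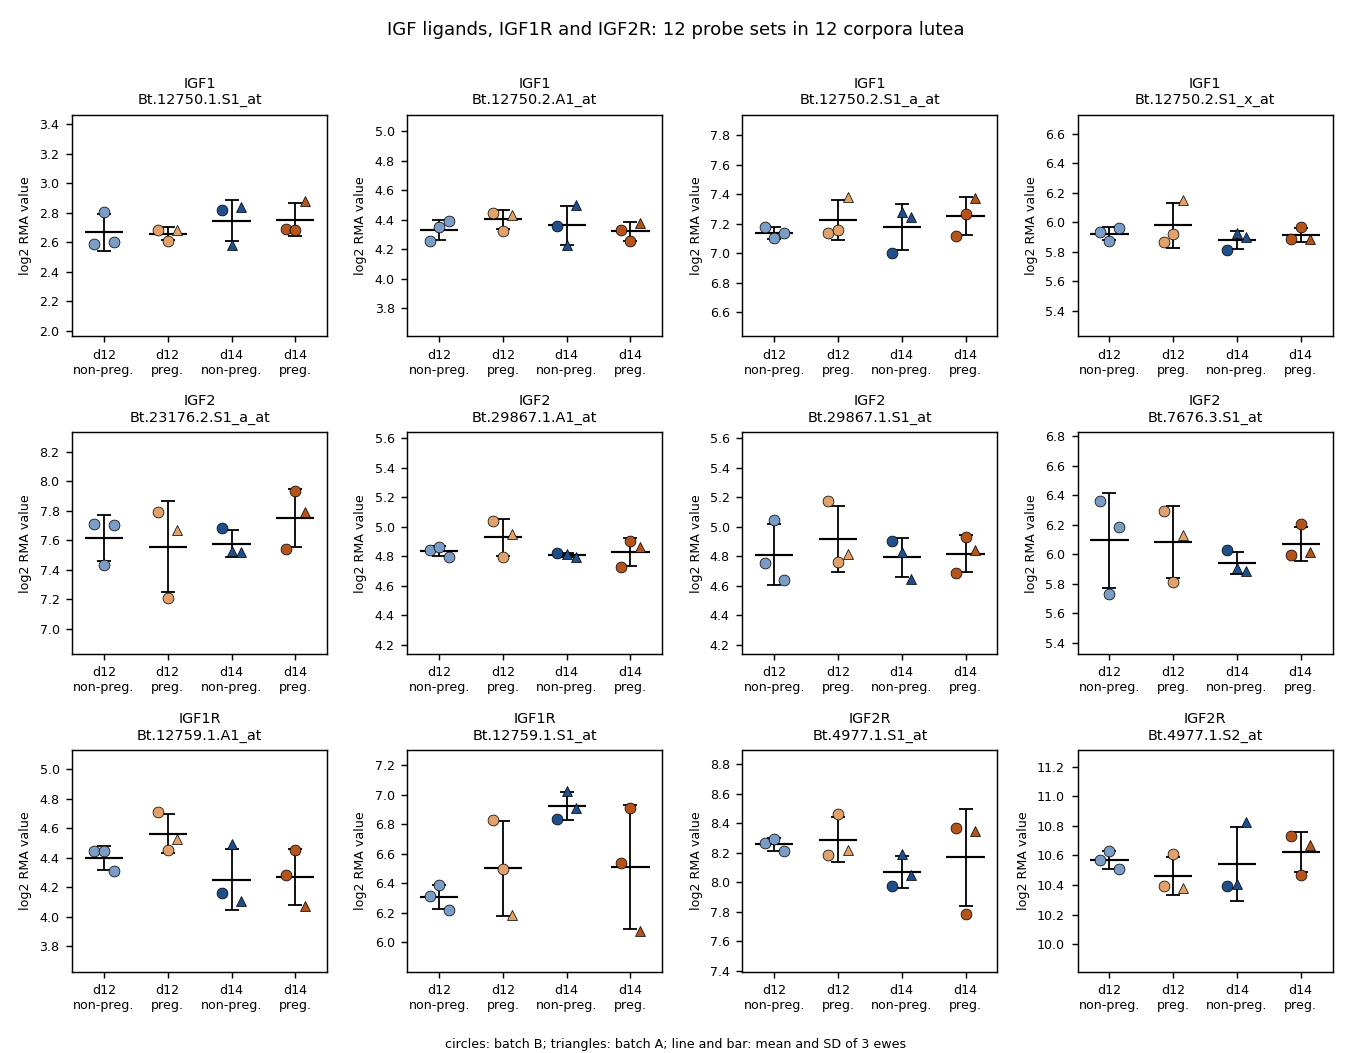
Log2 RMA values (y axis) of the probe sets of IGF1, IGF2, IGF1R and IGF2R in each ewe by group (x axis), with mean and SD of 3 ewes as line and bar, circles for batch B and triangles for batch A. Groups overlap for IGF1 and IGF2, and the day 14 non-pregnant values of IGF1R Bt.12759.1.S1_at (6.84 to 7.03) lie above all day 12 non-pregnant values (6.22 to 6.39).

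IGF1R, the receptor kinase for both ligands, had its brightest probe set, Bt.12759.1.S1_at, at 6.84, 7.03 and 6.91 (log2) in day 14 non-pregnant ewes. It was at 6.31, 6.39 and 6.22 in day 12 non-pregnant ewes and at 6.83, 6.49 and 6.18 in day 12 pregnant ewes. In day 14 pregnant ewes it was at 6.54, 6.91 and 6.08. The non-pregnant groups did not overlap, while the day 14 groups did, through the pregnant ewe at 6.91. The difference between the days in non-pregnant ewes was 0.84 ± 0.19 (log2 ± SE, adjusted p = 0.0978) and that of pregnancy on day 14 was -0.53 ± 0.17 (adjusted p = 0.163), and neither passed in limma. The pregnancy difference on day 14 was -0.89 over batch A arrays and -0.11 over those of batch B. Without day 14 non-pregnant replicate 1, the batch B array of that group, both passed, at 1.22 (adjusted p = 0.0286) and -0.83 (adjusted p = 0.0384). The day 14 difference was -0.31 (adjusted p = 0.554) without day 14 pregnant replicate 3, the only batch A array of that group. In that fit the ewe and the batch cannot be told apart. With the pair of batch A arrays from day 14 non-pregnant ewes left out, the differences were 0.53 (adjusted p = 0.238) between the days and -0.14 (adjusted p = 0.802) on day 14. The other probe set, Bt.12759.1.A1_at, did not repeat these differences. Between the days in non-pregnant ewes it was at -0.10 ± 0.15 (adjusted p = 0.853). For pregnancy on day 14 it was at -0.0051 ± 0.14 (adjusted p = 0.992). Its difference between the days in pregnant ewes was -0.29 ± 0.13 (adjusted p = 0.992), which did not pass either.

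IGF2R, which clears IGF2 and sorts lysosomal enzymes, lay between 10.38 and 10.83 (log2) over the 12 arrays by its brightest probe set, Bt.4977.1.S2_at. Its group means were 10.57 ± 0.0591, 10.46 ± 0.128, 10.54 ± 0.250 and 10.63 ± 0.134 (SD, n = 3) in day 12 non-pregnant, day 12 pregnant, day 14 non-pregnant and day 14 pregnant ewes, and all overlapped. The differences of its 2 probe sets lay between -0.26 and 0.23, with a lowest adjusted p of 0.600 in limma. Of these only Bt.4977.1.S1_at separated a pair of groups, at 7.97 to 8.19 in day 14 against 8.21 to 8.30 in day 12 non-pregnant ewes.

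INSR, the insulin receptor, gave the widest range among the members, and its 5 probe sets disagreed. Bt.28461.2.S1_a_at was at 4.39, 4.57 and 5.28 (log2) in day 14 non-pregnant ewes. The other 9 arrays lay between 2.58 and 2.96, with 2.93, 2.72 and 2.96 in day 14 pregnant, 2.58, 2.73 and 2.58 in day 12 non-pregnant and 2.76, 2.94 and 2.92 in day 12 pregnant ewes. The day 14 non-pregnant group thus lay wholly above the other 9 arrays. On day 14 this probe set was 3.47-fold lower in pregnant ewes by the fit (-1.79 ± 0.18, adjusted p = 0.000974, rank 11 of all probe sets by p). In ewes that were not pregnant it rose 3.87-fold between the days (1.95 ± 0.19, adjusted p = 0.00165, rank 7). On day 12 the difference between pregnant and non-pregnant ewes was 0.16 ± 0.18 (adjusted p = 0.879) and did not pass. The day 12 groups did not overlap, with pregnant ewes higher, as for 8.56% of all probe sets. The interaction was -1.95 ± 0.26 (adjusted p = 0.0267).

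In the other 9 arrays this INSR probe set lay at percentiles 8.69 to 15.2 of its own array, against 37.6 to 51.2 in day 14 non-pregnant ewes. The low side was therefore at the level of dim probe sets, and the size of the fold is uncertain. Within batch B alone, which held 1 day 14 non-pregnant array, the differences were -1.56 for pregnancy on day 14 and 1.76 between the days. Within batch A, which held 1 day 14 pregnant array, the day 14 difference was -1.97. Both pairwise calls passed in each of the 12 fits that left out 1 array (adjusted p up to 0.0242 and 0.0109). The interaction passed in 5 of those 12 fits, with values of -2.20 to -1.79 over the 12. It was lost without day 12 non-pregnant replicate 1 (adjusted p = 0.0771), 2 (0.0784) or 3 (0.0970), without day 12 pregnant replicate 1 (0.0852) or 2 (0.132) and without day 14 pregnant replicate 2 (0.0917) or 3 (0.152).

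A second INSR probe set, Bt.28461.1.S1_a_at, showed the same order of groups. It was at 3.70, 4.10 and 4.98 (log2) in day 14 non-pregnant ewes and between 2.65 and 3.06 in the other 9 arrays. It was 2.34-fold lower in pregnant ewes on day 14 (-1.23 ± 0.21, adjusted p = 0.0180; -1.48 and -0.92 within batches A and B). This call was lost without day 14 pregnant replicate 2 (adjusted p = 0.0597) or 3 (0.134), and with only the 6 arrays compared (0.111). Between the days in non-pregnant ewes it was at 1.12 ± 0.23 (adjusted p = 0.0702), which did not pass, but it passed without a batch term (1.43, adjusted p = 0.0142) and without day 14 non-pregnant replicate 2 (1.23, adjusted p = 0.0272) or 3 (0.91, adjusted p = 0.0124).

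The other 3 INSR probe sets did not follow. The brightest of the gene, Bt.28461.1.A1_at, lay at 4.81 ± 0.141 in day 14 non-pregnant and 4.82 ± 0.192 in day 14 pregnant ewes (log2, SD, n = 3), and at 4.64 ± 0.240 and 4.70 ± 0.180 in day 12 non-pregnant and pregnant ewes. Over the 5 comparisons the differences of these 3 lay between -0.32 and 0.21, with a lowest adjusted p of 0.651 in limma. On day 12 the groups did not overlap for Bt.28461.1.A1_a_at and Bt.28461.1.S1_at, both higher in pregnant ewes (8.56% of all probe sets). Bt.28461.1.S1_at also separated the days in pregnant ewes, with day 14 lower (5.32%). Both probe sets that passed carry the suffix _a_at, which marks probes shared by several transcripts of one gene, as does Bt.28461.1.A1_a_at, which stayed between 3.52 and 3.85 in all 12 arrays. An average over all 5 includes both probe sets that passed. With all 5 averaged, the day 14 difference was -0.63 (adjusted p = 0.0186). The difference between the days in non-pregnant ewes was then 0.68 (adjusted p = 0.0387) and the interaction was -0.70 (adjusted p = 0.191).

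**Figure D3:**
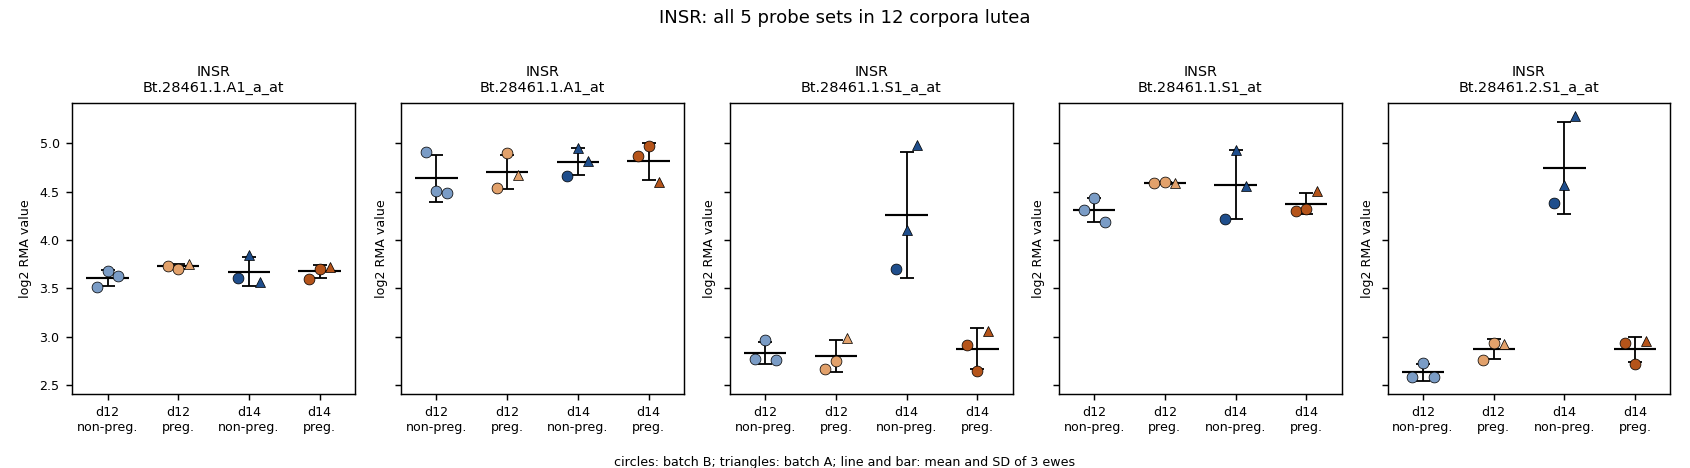
Log2 RMA values (y axis, shared) of the 5 INSR probe sets in each ewe by group (x axis), with mean and SD of 3 ewes as line and bar, circles for batch B and triangles for batch A. In Bt.28461.1.S1_a_at and Bt.28461.2.S1_a_at the 3 day 14 non-pregnant values lie above all others (3.70 to 4.98 and 4.39 to 5.28), and in the remaining 3 probe sets the day 14 groups overlap.

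IGFBP3, the main carrier of IGFs in blood and a binding protein made in many tissues, was highest in day 14 non-pregnant ewes by both of its probe sets. The brightest, Bt.422.1.S2_at, was at 9.50, 8.88 and 9.32 (log2) in that group and at 7.84, 8.06 and 7.60 in day 14 pregnant ewes. It was at 8.32, 7.61 and 8.44 in day 12 non-pregnant and at 8.69, 8.24 and 8.30 in day 12 pregnant ewes. All 3 day 14 non-pregnant values lay above the other 9. The order of the group means was day 14 non-pregnant (9.23 ± 0.319, SD, n = 3), day 12 pregnant (8.41 ± 0.246), day 12 non-pregnant (8.12 ± 0.445) and day 14 pregnant (7.83 ± 0.229). Both day 12 groups overlapped each other, as did day 12 non-pregnant and day 14 pregnant.

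On day 14, IGFBP3 was 2.82-fold lower in pregnant ewes by Bt.422.1.S2_at (-1.50 ± 0.22, adjusted p = 0.00724). The differences were -1.50 and -1.55 within batches A and B, each with 1 array on one side. The call was lost without day 14 pregnant replicate 3 (-1.47, adjusted p = 0.0726) and when the pair of batch A arrays from day 14 non-pregnant ewes was left out (-1.58, adjusted p = 0.0550), and passed in the other 11 fits that left out 1 array. Between the days in ewes that were not pregnant it rose 2.48-fold (1.31 ± 0.24, adjusted p = 0.0462), with 1.37 within batch B. This call was lost in 11 of the 12 fits that left out 1 array, where the difference stayed between 1.06 and 1.47 and the adjusted p reached 0.166, and held only without day 14 non-pregnant replicate 2. In pregnant ewes the difference between the days was -0.57 ± 0.21 (adjusted p = 0.992), and the groups did not overlap. The interaction was -1.89 ± 0.32 (adjusted p = 0.0678) and did not pass.

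The other IGFBP3 probe set, Bt.422.1.S1_at, was at 8.41, 7.67 and 7.87 (log2) in day 14 non-pregnant and at 6.39, 6.88 and 6.36 in day 14 pregnant ewes. The day 12 values were wider, at 7.21, 6.37 and 7.81 in non-pregnant and 7.25, 6.72 and 6.93 in pregnant ewes, and the day 12 non-pregnant ewe at 7.81 lay within the range of the day 14 non-pregnant group. It was 2.92-fold lower in pregnant ewes on day 14 (-1.55 ± 0.31, adjusted p = 0.0367; -1.40 and -1.78 within batches A and B), a call that passed in 4 of the 12 fits that left out 1 array (adjusted p up to 0.157). Those were the fits without day 12 non-pregnant replicate 2 or 3, day 12 pregnant replicate 2 and day 14 non-pregnant replicate 2, and leaving out any other array ended it, as did array weights (0.152) and a trended robust prior (0.0602). The difference between the days in non-pregnant ewes was 1.07 ± 0.35 (adjusted p = 0.245). Its neighbour in the sheep annotation, IGFBP1, which was not among the 10 genes, was at -0.033 ± 0.13 on day 14 (adjusted p = 0.936) and lay between 4.56 and 4.98 in all 12 arrays.

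**Figure D4:**
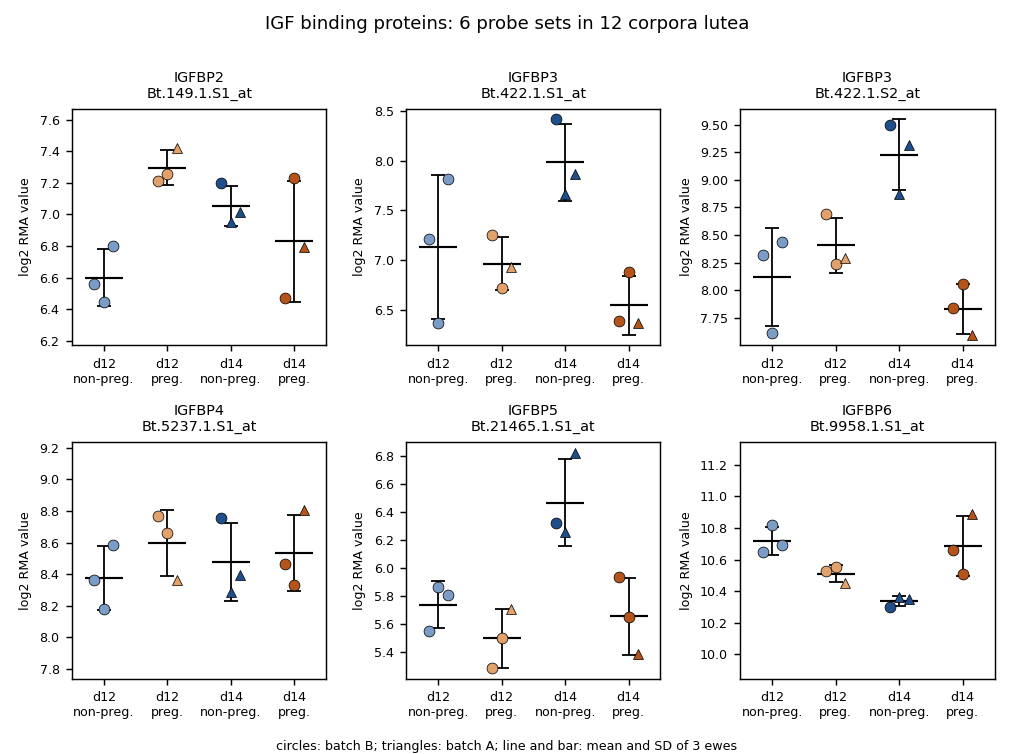
Log2 RMA values (y axis) of the 6 binding protein probe sets in each ewe by group (x axis), with mean and SD of 3 ewes as line and bar, circles for batch B and triangles for batch A. IGFBP3 and IGFBP5 are highest and IGFBP6 lowest in the day 14 non-pregnant group, and IGFBP2 separates the day 12 groups (6.44 to 6.80 against 7.21 to 7.42).

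IGFBP5, a binding protein that also attaches to the matrix, was at 6.32, 6.26 and 6.82 (log2) in day 14 non-pregnant and at 5.93, 5.65 and 5.38 in day 14 pregnant ewes. On day 12 it was at 5.54, 5.86 and 5.80 in non-pregnant and at 5.28, 5.50 and 5.70 in pregnant ewes. The day 14 non-pregnant values lay above the other 9. The day 14 difference of -0.80 ± 0.19 did not pass (adjusted p = 0.0696; -1.16 and -0.53 within batches A and B), nor did that between the days in non-pregnant ewes (0.70 ± 0.21, adjusted p = 0.205). The day 14 difference passed without a batch term (-0.81, adjusted p = 0.0368), with batch as a random block (adjusted p = 0.0364) and without day 14 non-pregnant replicate 2 (-0.90, adjusted p = 0.0482). It was -0.50 (adjusted p = 0.346) without day 14 pregnant replicate 3.

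IGFBP6, which prefers IGF2 over IGF1, ran the other way. It was at 10.30, 10.36 and 10.35 (log2) in day 14 non-pregnant and at 10.66, 10.51 and 10.89 in day 14 pregnant ewes. On day 12 it was at 10.65, 10.82 and 10.69 in non-pregnant and at 10.53, 10.55 and 10.45 in pregnant ewes. Pregnant ewes thus lay wholly below non-pregnant ones on day 12 and wholly above them on day 14. The differences were -0.23 ± 0.10 on day 12 (adjusted p = 0.635) and 0.38 ± 0.10 on day 14 (adjusted p = 0.111), where it was 0.24 (adjusted p = 0.432) without day 14 pregnant replicate 3. The interaction of 0.61 ± 0.15 did not pass (adjusted p = 0.250). In non-pregnant ewes the difference between the days was -0.44 ± 0.12 (adjusted p = 0.153).

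IGFBP2, the neighbour of IGFBP5 in the sheep annotation, differed most on day 12. It was at 7.21, 7.26 and 7.42 (log2) in pregnant and at 6.56, 6.44 and 6.80 in non-pregnant ewes on that day, with no overlap. On day 14 it was at 7.20, 6.95 and 7.01 in non-pregnant and at 6.47, 7.23 and 6.79 in pregnant ewes, which overlapped. The day 12 difference was 0.71 ± 0.18 (adjusted p = 0.395) and the difference between the days was 0.47 ± 0.20 in non-pregnant (adjusted p = 0.384) and -0.47 ± 0.17 in pregnant ewes (adjusted p = 0.992). The interaction was -0.94 ± 0.26 (adjusted p = 0.294), and none of these passed in limma. IGFBP4, an IGF inhibitor that the protease PAPPA cleaves, lay between 8.18 and 8.80 in all 12 arrays with all groups overlapping, and its differences were between -0.25 and 0.26 (lowest adjusted p = 0.763).

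Set side by side, the median size of the difference was larger for the binding proteins than for the ligands and receptors in all 5 comparisons, by probe set and by the brightest probe set of each gene. On day 14 the 6 binding protein probe sets had a median difference of -0.52 and a median size of 0.59 (log2), the 17 of ligands and receptors 0.019 and 0.10, and all probe sets 0.029 and 0.13. IGFBP3 counts with both of its probe sets there. By the brightest probe set of each gene, the day 14 median was -0.23 with a size of 0.38 for the 5 binding proteins, 0.10 with 0.15 for the 5 ligands and receptors and 0.026 with 0.14 for all genes. Between the days in non-pregnant ewes the median size was 0.59 by probe set and 0.47 by gene for the binding proteins, against 0.10 and 0.11 for ligands and receptors. On day 12 it was 0.26 by probe set and by gene, against 0.087 and 0.084. Between the days in pregnant ewes it was 0.30 by probe set and 0.17 by gene, against 0.094 and 0.11, and in the interaction 0.78 and 0.61, against 0.14 and 0.23. Groups did not overlap on day 14 for 4 of the 6 binding protein probe sets and for 2 of the 17 others, where 18.3% of all probe sets did not overlap. Over the 23 that was 1 higher and 5 lower in pregnant ewes, against 11.1% and 7.15% of all probe sets. On day 12 these counts were 2 of 6 and 4 of 17 (16.4% of all probe sets), between the days 4 of 6 and 4 of 17 in non-pregnant (19.8%), and 1 of 6 and 1 of 17 in pregnant ewes (9.9%). By direction they were 5 higher and 1 lower on day 12 (8.56% and 7.87% of all probe sets), 6 higher and 2 lower between the days in non-pregnant ewes (7.67% and 12.1%), and 0 higher and 2 lower in pregnant ewes (4.58% and 5.32%). On day 14, 2 of the 6 binding protein probe sets and 2 of the 17 others, both of INSR, passed in limma. By the brightest probe set of each gene, 1 of 5 binding proteins (IGFBP3) and 0 of 5 ligands and receptors passed. Of all genes 1.94% passed. At an unadjusted p under 0.05 there were 3 and 1, where the share of all genes was 18.2%. INSR entered this gene count by its brightest probe set, which did not pass, so its passing probe sets are not in it. Averaged over its 5 probe sets, INSR passed (-0.63, adjusted p = 0.0186). That average includes the 2 probe sets that passed (-1.79 and -1.23), and the other 3 were at 0.025, -0.011 and -0.12. It is therefore no separate evidence for the gene. These counts describe the 10 genes, which are not replicates, and no test between the classes was made. Probe sets of one gene share their target.

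Of 80 further genes of the pathway, 50 had a probe set of their own, and the brightest one of each was used. On day 14, 0 were higher and 1 was lower in pregnant ewes in limma, where 1.94% of all genes were called by their brightest probe set. At an unadjusted p under 0.05 there were 11 of the 50, against 18.2% of all genes, and the median difference was 0.019, against 0.026. The 1 was RHEB, the small GTPase that switches on the TOR kinase, at 11.35, 11.43 and 11.49 (log2) in day 14 non-pregnant and 10.93, 11.02 and 10.90 in day 14 pregnant ewes. Its values on day 12 were 10.96 to 11.06 in non-pregnant and 11.02 to 11.07 in pregnant ewes, so that only the day 14 non-pregnant group stood higher among these 4 groups. The RHEB difference on day 14 was -0.47 ± 0.086 (adjusted p = 0.0252; -0.56 and -0.38 within batches A and B). The call was lost without day 14 pregnant replicate 1 (adjusted p = 0.0630) or 3 (0.147), without day 14 non-pregnant replicate 3 (0.0510), with array weights (0.0639), with only the 6 arrays compared (0.112) and when the pair of batch A arrays from day 14 non-pregnant ewes was left out (0.188). In the other 4 comparisons 0 of the 50 passed in limma, where 0.502% of all genes were called between the days in non-pregnant ewes, 0.109% in the interaction and 0 in the others. At an unadjusted p under 0.05 there were 3 on day 12, against 8.66% of all genes, 6 between the days in non-pregnant ewes (13.3%), 3 in pregnant ewes (4.57%) and 6 in the interaction (11.1%).

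By arm of the pathway, RHEB was 1 of 15 measured genes of the PI3K, AKT and TOR arm. None of 6 receptor adaptors and brakes passed, with the adaptor SH2B1 at 0.36 ± 0.097 (adjusted p = 0.0996) and GAB1, another adaptor, at 0.37 ± 0.13 (adjusted p = 0.201). None of 6 genes of the growth hormone axis passed, with the prolactin receptor PRLR at 0.52 ± 0.14 (adjusted p = 0.0953) and STAT5B, a transcription factor downstream of it, at -0.37 ± 0.16 (adjusted p = 0.285). Among 7 IGF proteases, their inhibitors and carriers none passed, with PAPPA at 0.24 ± 0.11 (adjusted p = 0.317) and plasminogen, PLG, at 0.21 ± 0.12 (adjusted p = 0.414). In the RAS and MAPK arm 0 of 8 passed, with the kinases MAP2K2 at -0.12 ± 0.10 (adjusted p = 0.635) and RPS6KA1 at 0.12 ± 0.14 (adjusted p = 0.727). Of 8 other relatives 0 passed in limma, with INSIG1, a regulator of sterol synthesis, at 0.61 ± 0.49 (adjusted p = 0.604). At an unadjusted p under 0.05 there were 5 in the PI3K, AKT and TOR arm, 2 adaptors, 3 of the growth hormone axis, 1 protease gene, 0 in the RAS and MAPK arm and 0 relatives, of the 15, 6, 6, 7, 8 and 8 measured, where the share of all genes was 18.2%.

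The marker lists of other cell types were set beside the INSR and IGFBP3 values. Of all genes, each by its brightest probe set, 1.94% were called on day 14 and 18.2% had an unadjusted p under 0.05. The mean level of 10 endothelial markers was 6.57 to 7.02 (log2) in day 14 non-pregnant and 6.98 to 7.10 in day 14 pregnant ewes. Of these 10, 2 were called, both higher in pregnant ewes, and 3 had an unadjusted p under 0.05. The differences of 6 endothelial markers lay above 0 and those of 4 below. For 9 fibroblast markers it was 9.88 to 10.05 and 9.68 to 10.15, with 0 of 9 called and 0 at an unadjusted p under 0.05. For 9 smooth muscle and pericyte markers it was 7.44 to 7.71 and 7.32 to 7.73, with 1 of 9 called as lower in pregnant ewes and 3 at an unadjusted p under 0.05. For 7 macrophage markers it was 6.57 to 7.46 and 6.64 to 7.15, with 0 called and 3 at an unadjusted p under 0.05, and CD86 was dim. For 10 T and NK cell markers it was 5.03 to 5.20 and 5.04 to 5.33, with 0 called, 0 at an unadjusted p under 0.05 and KLRK1 dim. For 6 follicle markers it was 5.28 to 5.43 and 5.39 to 5.57, with 0 called, 1 at an unadjusted p under 0.05 and FSHR dim. Of the 10 luteal steroid cell markers, 2 were called as higher in pregnant ewes, and 6 had an unadjusted p under 0.05. The day 14 groups did not overlap for 7 of these 10, all higher in pregnant ewes, against 1875 of all 9155 genes in either direction. The part of these cell types in the IGFBP3 and INSR differences was not tested.

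The genes most like IGFBP3 over the 12 arrays were RELL1, SLC2A1 and AGO2 among 8159 genes that were not dim. Likeness was the root mean square difference of the log2 values after each gene was centred on its own mean. It was 0.27 for RELL1, 0.30 for the glucose transporter SLC2A1 and 0.30 for AGO2, against a median of 0.61 over all of these genes. A gene that did not vary would lie at 0.58, the root mean square spread of IGFBP3 itself, so the median is a weak yardstick. For INSR Bt.28461.2.S1_a_at, chosen after its values were seen, the most alike were CDH1 (0.20), ZCCHC12 (0.25) and ELL2 (0.28). The median was 0.90 and the spread of this probe set itself 0.88. CDH1, which encodes E-cadherin, was at 5.39, 6.19 and 6.47 (log2) in day 14 non-pregnant ewes and between 3.79 and 4.36 in day 14 pregnant ewes. These are descriptions over the same 12 arrays, in which the day 14 non-pregnant group stands apart.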

How the data were processed

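The deposited values are on the log2 scale. The submitters' processing notes name RMA and Affymetrix Expression Console, and the authors used bovine arrays with sheep RNA, 1 array per ewe. For tool versions and settings, nothing is given in the sources used here. As a method, RMA corrects background, equalises array distributions and sums probes on the log2 scale. Mismatches between bovine probes and sheep RNA lower a signal, so fold changes were taken only within a probe set. Levels were ranked across probe sets for the check of luteal markers, the choice of each gene's brightest probe set and the limit for dim ones. Groups came from the source label, since all 12 titles name the same group and conflict with the source label for 9 of the 12. No pair of arrays was identical (0 of all pairs), and array medians were 5.16 to 5.24. The number of arrays limits the precision.

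After leaving out 112 control probe sets, limma 3.58.1 in R 4.3.3 was fitted to all 12 arrays with 4 group means plus a batch effect (7 residual and 4.391 prior degrees of freedom, two-sided, Benjamini-Hochberg over 24016 probe sets, threshold 0.05). The fit was tested on simulated data. The batch term passed for 0 probe sets, with 1658 at an unadjusted p under 0.05. Differences are log2 ± SE. Symbols came from the array's annotation (1 symbol for 13292 probe sets, several for 86, none for 10638), and all 10 symbols occur in the sheep RefSeq gene table, which was used only for gene neighbours. Named genes were all members, pathway genes that passed in any comparison, otherwise the 2 with the smallest day 14 p in a list, and the 3 genes most like each member whose brightest probe set passed. Alternatives left out the batch term, took batch as a random block, fitted only the groups compared, used array weights or a trended robust prior, left out dim probe sets, repeated quantile normalization, averaged probe sets per gene or left out each array in turn. The members and lists were chosen with earlier results of these data known.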

Additional observations from a re-analysis of the deposited data

Results flagged for a closer look

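The pregnancy difference of INSR by Bt.28461.2.S1_a_at differed between the days by a test of that difference itself. The interaction was -1.95 ± 0.26 (log2 ± SE, limma adjusted p = 0.0267), with pregnancy differences of -1.79 on day 14 and 0.16 on day 12. Every day 14 non-pregnant ewe (3 of 3) lay above the other 9 arrays. The interaction was -1.78 within batch B, which held 1 day 14 non-pregnant array, and no array of day 12 non-pregnant ewes was in batch A. The low side of this probe set was dim, and the other 4 INSR probe sets did not pass the same test. Leaving out each array in turn, it passed in 5 of 12 fits, with an adjusted p of up to 0.152.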

How the results depend on the processing

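The alternatives were run for 30 differences, those of the 23 probe sets with an unadjusted p under 0.05 and those of RHEB. None of the 30 changed sign in the 624 values checked over 21 settings. Of these values 46 lost and 14 gained a call and 564 kept their side of the threshold. The 564 include differences that had no call to lose. The 30 were picked from these same arrays, most of which each setting reuses, so a stable sign was likely from the start. The number of member probe sets called on day 14 was 4. It was 2 with dim probe sets left out, which removes both INSR probe sets that passed, 2 genes with probe sets averaged per gene, and 2 when the pair of batch A arrays from day 14 non-pregnant ewes was left out, an alternative chosen after seeing the data. It ranged from 1 to 5 over the 12 leave-outs, with 1 without day 14 pregnant replicate 3, the only batch A array of its group, and 2 without replicate 2. Between the days in non-pregnant ewes it was 2. It was 1 with only the groups compared, with array weights, with dim probe sets left out, with repeated quantile normalization and as genes with probe sets averaged, and 1 to 3 over the leave-outs. For the interaction it was 1, and 0 with dim probe sets left out or probe sets averaged, and 0 to 2 over the leave-outs. The day 12 comparison and that between the days in pregnant ewes stayed at 0 in each of these alternatives. The cause was not tested unless named.

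Over all probe sets, the calls on day 14 were 348, against 531 without a batch term, 141 with array weights, 94 with only the groups compared, 174 without that pair of arrays and 88 to 510 over the leave-outs, with 88 without day 14 pregnant replicate 3. Between the days in non-pregnant ewes they were 94, against 415 without a batch term (231 higher and 184 lower, where the 94 were 70 and 24), 462 with batch as a random block, 159 without that pair and 28 to 254 over the leave-outs. For the interaction they were 21, against 50 without a batch term, with a random block or with only the groups compared, 59 without that pair and 1 to 76 over the leave-outs. On day 12 they were 0, against 15 with only the groups compared. No paired analysis was possible because the labels give no replicate numbers shared between groups. Without detection calls, signal over background could not be set as a limit, and dim probe sets have uncertain folds.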

Other observations

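Among relatives of the system outside the 10 genes, STC1, whose protein inhibits the protease PAPPA, and INSL3, an insulin-like hormone of ovarian theca and luteal cells, varied widely between single ewes. STC1 lay between 5.83 and 9.29 (log2, median 7.45) over the 12 arrays, with an SD larger than that of 99.7% of all probe sets. Its values were 7.58, 9.29 and 7.30 in day 12 non-pregnant, 7.17, 7.87 and 5.83 in day 12 pregnant, 6.30, 6.17 and 8.08 in day 14 non-pregnant and 7.80, 7.33 and 7.92 in day 14 pregnant ewes. INSL3 lay between 8.68 and 11.08 (median 9.77), with an SD larger than that of 98.7% of all probe sets. Groups overlapped for both genes on each day, and neither passed in any comparison in limma. IGFBP7, a secreted relative of the binding proteins, lay between 12.92 and 13.25, with an SD larger than that of 7.30% of all probe sets.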
